A study of Mus musculus with 8 samples.

Results

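Piezo1, Piezo2 and Trpv4 encode cation channels that open when the cell membrane or its surroundings are deformed. They were taken by gene symbol from a table of 14457 genes, and all 3 were found there. RNA of the femoral cortical shaft was sequenced in bulk from mice at postnatal day 7. Control libraries (4) came from mice with genotype Col2.3kb-Cre; Slc26a2 fl/+ and CKO libraries (4) from mice with genotype Col2.3kb-Cre; Slc26a2 fl/fl, so both groups carried the Cre and at least 1 floxed allele, and no library without Cre was analysed here. Slc26a2 is a sulfate transporter needed to sulfate matrix proteoglycans, and the 2.3 kb collagen promoter fragment drives Cre in osteoblasts and osteocytes, so other cells of the shaft kept the gene. The series concerns the maturation of osteoblasts that lack Slc26a2 and, by its title, a mechanical exchange of these cells with their matrix that depends on sulfation.

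Piezo channels are large curved membrane proteins that flatten under tension and let calcium and other cations into the cell. In mice, Piezo1 in osteoblasts and osteocytes is needed for normal bone mass and for the response of bone to load, whereas Piezo2 is known mainly as the channel of touch and position sense in sensory neurons. Trpv4 is a calcium-permeable channel of another family that responds to swelling, shear and warmth. It is best known in the skeleton from chondrocytes and osteoclasts, and human TRPV4 mutations cause skeletal dysplasias.

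The stretches just upstream of the annotated starts of Piezo1 and Trpv4 are shown because these are the more abundant channels and both had lower means in CKO. They are the 250 bases before the start from RefSeq (GRCm38.p6), read 5′ to 3′ on the minus strand, at chr8:122551330-122551579 for Piezo1 and chr5:114658422-114658671 for Trpv4. Capitals mark matches to the TATA box core TATAAA or the GC box core GGGCGG.
Piezo1: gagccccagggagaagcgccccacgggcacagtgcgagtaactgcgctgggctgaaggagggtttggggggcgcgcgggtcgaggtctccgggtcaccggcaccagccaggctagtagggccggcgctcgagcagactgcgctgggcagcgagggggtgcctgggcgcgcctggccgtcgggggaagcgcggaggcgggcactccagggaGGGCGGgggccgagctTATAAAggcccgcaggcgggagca
Trpv4: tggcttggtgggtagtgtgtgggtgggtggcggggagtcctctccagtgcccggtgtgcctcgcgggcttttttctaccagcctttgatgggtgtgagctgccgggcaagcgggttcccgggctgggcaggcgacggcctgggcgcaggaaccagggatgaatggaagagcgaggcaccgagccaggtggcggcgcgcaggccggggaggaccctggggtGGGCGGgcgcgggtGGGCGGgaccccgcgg

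Both stretches were rich in G and C, at 74.0% for Piezo1 and 72.0% for Trpv4, against a median of 52.4% over 32851 promoter windows of the same length. Piezo1 held 1 TATAAA, whose first base lay 24 bases before the start, and 1 GGGCGG at 40 bases. Trpv4 held no TATAAA and 2 copies of GGGCGG, at 30 and 16 bases, which do not overlap. On either strand, TATAAA occurred in 12.4% of all windows and GGGCGG in 32.7%. The RUNX core TGTGGT (14.0% of windows) and the TEAD core GGAATG (12.6%) had no match in either stretch. These matches describe letters, not bound sites.

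The libraries differed in more than the channels. FPKM, the fragments of a gene scaled to its transcript length and to the library's mapped fragments, summed to 352283 to 379669 in controls and to 431612 to 598419 in CKO. The depth behind each value is unknown. CKO replicate 4 listed 155 genes at 0, against 5 to 31 in the other libraries. Control replicates 2 to 4 expressed Y-linked genes, with a mean log2(FPKM + 1) of 2.97 to 3.22. CKO replicate 4 lay between these and the rest at 1.81, and the other 4 libraries listed them at 0. Slc26a2, the targeted gene, had 4.37 to 7.49 FPKM in controls and 0.706 to 2.93 FPKM in CKO. Its log2 fold change was -1.34 (SE 0.30, limma adjusted p = 0.0412). As a check of the tissue label, the osteoblast collagen Col1a1 averaged 15482 FPKM in controls and the cartilage collagen Col2a1 39.8 FPKM. In CKO they averaged 5880 and 45.9 FPKM. Of the other listed chondrocyte markers, Col11a2 was the highest in controls, at 341 FPKM, and the next was Comp, at 5.89 FPKM.

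Piezo1 was the most abundant of the channels. Its level was 19.8, 38.9, 35.9 and 29.5 FPKM in control replicates 1 to 4. The CKO libraries, in the order of their replicate numbers, had 16.5, 17.9, 11.6 and 16.2 FPKM. Every CKO library lay below every control library, with control replicate 1 close to the CKO range. Control libraries averaged 31.0 ± 8.45 FPKM and CKO libraries 15.6 ± 2.76 FPKM (SD, n = 4 each), which is 49.8% less. An exact permutation test, two-sided, gave p = 0.0286, the least possible with 70 assignments.

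Across all genes, Piezo1 did not pass the threshold. Its log2 fold change on the log2(FPKM + 1) scale was -0.92 (SE 0.25, 95% interval -1.47 to -0.38), and its limma p, adjusted by the Benjamini-Hochberg method over 12748 genes, was 0.0584 against a threshold of 0.05. Ahead of it by p were 762 genes, and 578 (4.53%) passed, 83 of them lower (0.651%) and 495 higher (3.88%) in CKO. Groups failed to overlap in 18.7% of all genes tested, and in 6.0% with CKO below control, which is 765 genes with Piezo1 among them. Under quantile normalization 358 genes passed, 137 higher and 221 lower. Piezo1 passed when control replicate 1 or CKO replicate 4 was left out (limma adjusted p = 0.0292 and 0.0387), where 815 and 1885 genes passed. Without any 1 of the other 6 libraries no gene passed, with 2103 to 3234 genes at an unadjusted limma p under 0.05, and the adjusted p of Piezo1 lay between 0.0761 and 0.206. The authors' deposited table gives Piezo1 a log2 fold change of -0.90 and a p-value of 0.000181. Its header does not say whether that p-value is adjusted, and the unadjusted limma p here was 0.0035. The replicates are not stated to be separate mice, so p-values cover only the spread between these libraries.

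**Figure D1:**
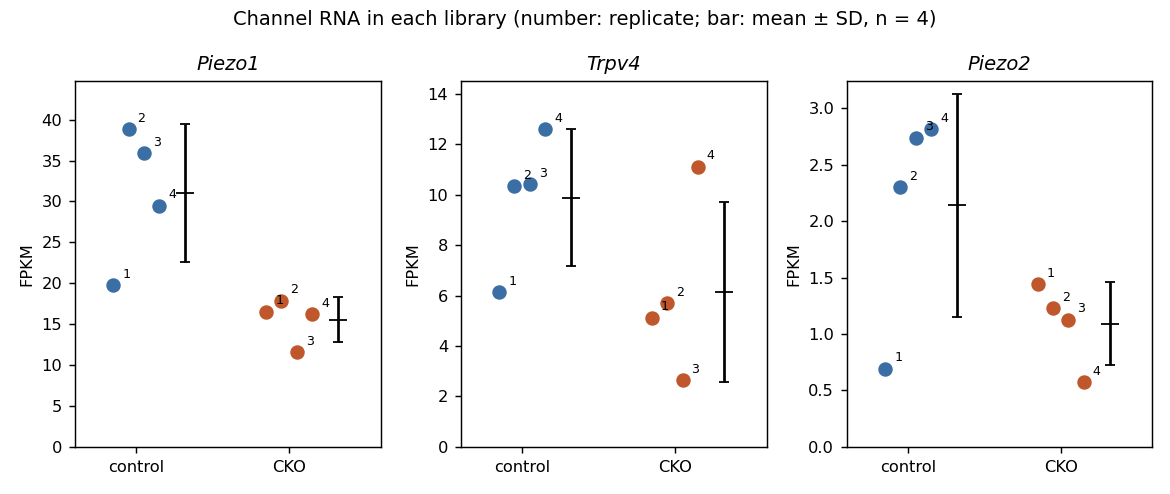
FPKM of Piezo1, Trpv4 and Piezo2 in each library (points, numbered by replicate), with the mean and SD of each genotype (bars, n = 4), on axes that start at 0. For Piezo1 the CKO libraries, at 11.6 to 17.9 FPKM, all lie below the controls, at 19.8 to 38.9 FPKM; for Trpv4 and Piezo2 the genotypes overlap.

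Trpv4 was the second most abundant channel. In controls, again by replicate number, it stood at 6.13, 10.3, 10.4 and 12.6 FPKM, and in CKO at 5.13, 5.71, 2.66 and 11.1 FPKM. The groups overlapped, because CKO replicate 4 stood among the controls and control replicate 1 stood among the CKO libraries. The means were 9.87 ± 2.71 and 6.15 ± 3.56 FPKM (SD, n = 4 each), and the difference was within the spread (exact two-sided permutation p = 0.171). The log2 fold change was -0.70 (SE 0.35, 95% interval -1.47 to 0.08; limma adjusted p = 0.244). Without CKO replicate 4 it was -0.99 and passed (limma adjusted p = 0.0455). The authors' deposited table gives -0.50 with a p-value of 0.186, where the unadjusted limma p here was 0.0734.

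Piezo2 was near the lower limit of what was tested. By replicate number, the controls held 0.695, 2.30, 2.74 and 2.82 FPKM and the CKO libraries 1.44, 1.23, 1.13 and 0.572 FPKM. Control replicates 2 to 4 were above all CKO libraries, but control replicate 1 was below 3 of them. The means were 2.14 ± 0.990 and 1.09 ± 0.371 FPKM (SD, n = 4 each; exact two-sided permutation p = 0.114). The log2 fold change was -0.53 (SE 0.28, 95% interval -1.15 to 0.09; limma adjusted p = 0.263), and at this level the added 1 FPKM understates any change: with 0.1 in its place the value was -0.81. The authors' deposited table gives -0.90 with a p-value of 0.00885, where the unadjusted limma p here was 0.0848.

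Piezo2 passed the filter on low values with at least 1 FPKM in 6 of 8 libraries. Of 11 listed markers of sensory neurons and Schwann cells, 4 were measured here, all of them genes of myelinating Schwann cells. Their summed level was 34.4 to 52.5 FPKM in controls and 22.7 to 45.8 FPKM in CKO, so the genotypes overlapped. Most of that sum was Pmp22, a peripheral myelin protein, at 26.3 to 42.8 FPKM in controls and 15.5 to 30.6 FPKM in CKO. The genes lie at GRCm38 chromosome 8, 122481698 to 122551329 (Piezo1, ENSMUSG00000014444), chromosome 5, 114622152 to 114658421 (Trpv4, ENSMUSG00000014158), and chromosome 18, 63010213 to 63387183 (Piezo2, ENSMUSG00000041482), all on the minus strand.

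The order of the levels was the same in all 8 libraries, with Piezo1 above Trpv4 and Trpv4 above Piezo2. FPKM is a level per transcript length, but which lengths the authors used is not stated, and how far they affect this order was not tested. Within a genotype, neighbours in this order did not overlap. Piezo1 exceeded Trpv4 by 2.34 to 3.76 times in controls and by 1.46 to 4.35 times in CKO, the lowest value being CKO replicate 4. Piezo1 made up 65.6% to 75.5% of the summed FPKM of the channels in controls and 58.2% to 75.3% in CKO. By mean over all libraries, Piezo1 stood above 82.7% of the genes in the table, Trpv4 above 55.1% and Piezo2 above 18.6%.

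Ratios between channels within a library, which do not depend on how the library was scaled, were then compared between genotypes. The log2 ratio of Piezo1 to Trpv4 was 1.64 ± 0.30 in control and 1.48 ± 0.66 in CKO (SD, n = 4 each). The difference was -0.16, with an exact 97.1% interval of -1.36 to 0.86 (exact two-sided permutation p = 0.743, and 0.943 adjusted over the 3 pairs). Piezo1 to Piezo2 differed by -0.16 (interval -1.40 to 1.26, exact p = 0.714, adjusted 0.943). Trpv4 to Piezo2 differed by 0.0032 (interval -1.80 to 2.17, exact p = 0.943, adjusted 0.943). No unequal change between the channels was detected, and the intervals are wide enough to hold a 2-fold difference in either direction for the pairs with Piezo2.

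The channels were also set against markers of cells known to use them. In bulk tissue, fewer cells of a type and less RNA per cell cannot be told apart. Of 11 osteoblast markers 1 fell, 10 did not pass, and all 11 had a log2 fold change below 0 (median -0.88, against 0.01 over all genes). Over all genes tested, 0.651% were called lower and 48.9% were below 0. Of 8 endothelial markers none passed, 7 were below 0, and the median was -0.58. The mean log2(FPKM + 1) of the endothelial list was 4.46 to 4.71 in controls and 3.58 to 4.28 in CKO, and that of the osteoblast list was 9.12 to 9.44 and 7.74 to 8.99, so both lists separated the genotypes as Piezo1 did. With the endothelial list as a covariate the log2 fold changes were -0.65 for Piezo1, -1.25 for Trpv4 and 0.094 for Piezo2 (limma adjusted p = 0.311, 0.212 and 0.900). Because that list followed genotype, this fit separates them poorly.

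Relative to the mean of the osteoblast markers in the same library, Piezo1 stood at -4.33 ± 0.44 log2 units in control and -4.50 ± 0.38 in CKO (SD, n = 4 each). The difference was -0.17 (exact 97.1% interval -1.12 to 0.66, exact two-sided permutation p = 0.543, and 1.0 adjusted over the 6 ratios of this kind). Trpv4 differed by -0.011 (interval -0.63 to 1.01) and Piezo2 by -0.015 (interval -1.75 to 2.05), each with an exact permutation p of 1.0. These differences depended on how the markers were summarised: against the median of the markers in place of their mean they were -0.89 for Piezo1, -0.73 for Trpv4 and -0.73 for Piezo2 (exact permutation p = 0.0571, 0.314 and 0.229, adjusted 0.343, 0.471 and 0.457). Without any 1 library the difference for Piezo1 lay between -0.34, without control replicate 1, and -0.0026, without control replicate 2. Relative to the endothelial markers, Piezo1 stood at 0.40 ± 0.35 in control and 0.039 ± 0.40 in CKO, a difference of -0.37 (interval -1.09 to 0.67, exact permutation p = 0.286, adjusted 1.0). For Trpv4 and Piezo2 relative to the endothelial markers, CKO differed from control by -0.21 each (exact permutation p = 0.800 and 0.714, adjusted 1.0). In each of these 6 ratios the libraries of the genotypes overlapped, unlike the level of Piezo1 itself.

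**Figure D2:**
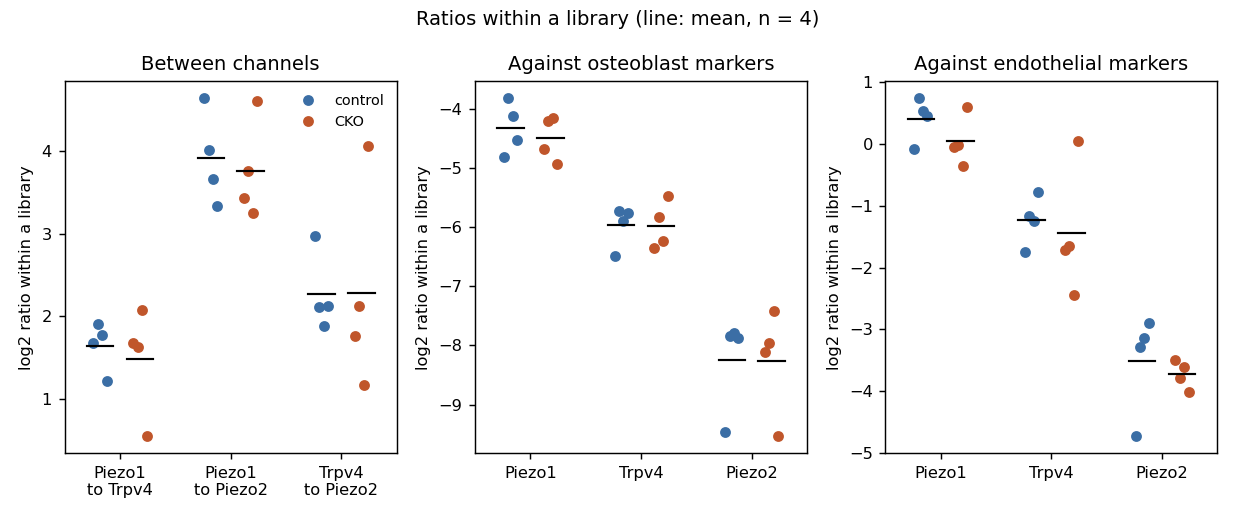
Log2 ratios within each library (points; line, mean of 4) between channels, and of each channel to the mean of 11 osteoblast or 8 endothelial markers; blue is control and orange CKO. Points of both genotypes overlap in every column, and CKO replicate 4 gives the lowest Piezo1 to Trpv4 ratio, at 0.54 log2 units.

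Markers of other cells moved with genotype as well. Of 8 neutrophil markers 3 rose (S100a8, S100a9 and Camp), and of 7 erythroid markers 2 rose (Hba-a1 and Alas2). Over all genes tested, 3.88% were called higher. The list mean was 5.82 to 7.78 in controls and 8.08 to 9.60 in CKO for neutrophils, and 5.26 to 6.96 and 7.36 to 8.0 for erythroid cells. None of 7 B lineage, 6 osteocyte, 8 periosteal, 5 chondrocyte, 7 macrophage and osteoclast or 8 skeletal muscle markers passed. The skeletal muscle list ranged from 1.76 to 5.94 in controls and from 2.79 to 7.41 in CKO, the highest being CKO replicate 4, where Trpv4 was also highest among CKO libraries. With a covariate for the neutrophil, erythroid and B lineage lists the log2 fold changes were -0.76 for Piezo1, -0.055 for Trpv4 and -0.023 for Piezo2 (limma adjusted p = 0.578, 0.969 and 0.984). With a covariate for the muscle list they were -1.08, -1.08 and -0.65, and Piezo1 and Trpv4 passed (limma adjusted p = 0.0198, 0.0184 and 0.158). Over all genes 1788 passed with the muscle list as a covariate, against 578 without a covariate. The neutrophil and erythroid lists separated the genotypes, so the fit with them as a covariate separates these cells from genotype poorly. In that fit the SE of Piezo1 was 0.41, against 0.25 without a covariate, and no gene passed. The part of these cells in the channels' values was not tested.

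Y-linked expression also followed genotype in part, and libraries with and without it each held only 1 library of one genotype, so the values within these classes are given without a test. CKO replicate 4 counts as a library with it, although its level was intermediate. In the libraries without it, Piezo1 was 19.8 FPKM in the control and averaged 15.3 FPKM in the 3 CKO libraries, and in those with it the 3 controls averaged 34.7 FPKM and the CKO library had 16.2 FPKM. Piezo1 was thus below control in both classes. Trpv4 was 6.13 against 4.50 FPKM without Y-linked expression and 11.1 in both genotypes with it. Piezo2 went in opposite directions, at 0.695 against 1.27 FPKM without it and 2.62 against 0.572 FPKM with it. With Y-linked expression as a covariate the log2 fold changes were -0.54, -0.052 and -0.18 for Piezo1, Trpv4 and Piezo2 (limma adjusted p = 0.327, 0.944 and 0.769).

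Transcript length was the other property that moved with the result. The longest coding transcripts in GENCODE M21 have 8219 bases and 51 exons for Piezo1, 10724 bases and 54 exons for Piezo2, and 3228 bases and 16 exons for Trpv4. Piezo1 and Piezo2 were longer than 95.4% and 98.3% of the genes tested, and Trpv4 than 52.8%. Split by length, the shortest quartile of genes had a median log2 fold change of 0.55 and the longest one of -0.33. In the longest quartile 82.2% of genes had a log2 fold change below 0, against 48.9% of all genes, and 14.5% had every CKO library below every control. After the trend with length was removed, the values were -0.51 for Piezo1, -0.65 for Trpv4 and -0.051 for Piezo2 (limma adjusted p = 0.274, 0.423 and 0.933). With equal FPKM totals, which moved the median of all genes to -0.37, they were -1.37, -1.10 and -0.80 (limma adjusted p = 0.0637, 0.0858 and 0.115).

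**Figure D3:**
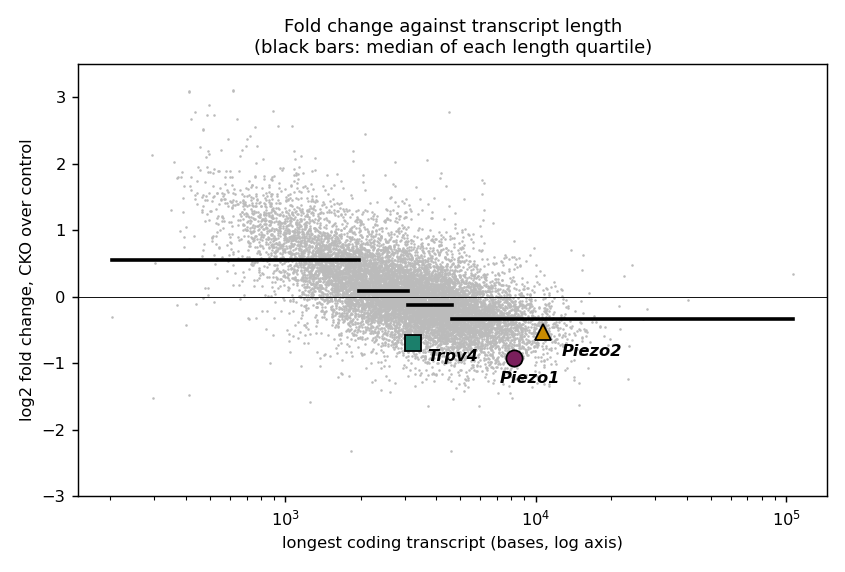
Log2 fold change (CKO over control) of each gene tested against the length of its longest coding transcript in bases, on a log axis; black bars are the medians of the length quartiles and coloured symbols the channels. Piezo1 (-0.92) and Trpv4 (-0.70) lie below the median of their quartile, and Piezo2 (-0.53) lies closer to its own, at -0.33.

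Among 25 other channels that respond to force or stretch, or have been linked to it, 17 could be tested. Of these, 2 fell, none rose and 15 did not pass. Over all genes tested, 0.651% were called lower. In 13 of the channels the log2 fold change was below 0 (median -0.34). Below 0 were 48.9% of all genes and 82.2% of the longest transcript quartile. In 5 every CKO library lay below every control, against 6.0% of all genes and 14.5% of the longest transcript quartile. The 2 that fell were the polycystins, which form a channel complex of the primary cilium. Pkd1 had 6.98, 11.1, 10.9 and 9.33 FPKM in the controls by replicate number, against 4.67, 4.97, 1.86 and 3.35 FPKM in the CKO libraries. Its log2 fold change was -1.20 (SE 0.27, limma adjusted p = 0.0421). Pkd2 had 14.3, 18.9, 17.8 and 17.3 FPKM in controls, and 10.6, 9.24, 5.61 and 3.33 FPKM in CKO. Its log2 fold change was -1.24 (SE 0.30, limma adjusted p = 0.0475). For both polycystins the groups were separate, and CKO replicates 3 and 4 were lowest. With the length trend removed the values were -0.65 and -0.97, and neither passed (limma adjusted p = 0.155 and 0.115). With the endothelial covariate they were -0.73 and -0.17 (limma adjusted p = 0.279 and 0.698). Both calls were also lost with median-of-ratios scaling (limma adjusted p = 0.0638 for both genes) and equal FPKM totals (0.0637 for both). The calls were lost too with the replicate block (limma adjusted p = 0.0512 and 0.0525), and with the Y-linked (0.238 and 0.219) and marrow covariates (0.560 for both). That of Pkd2 was lost as well with pseudocounts of 0.1 and 0.01 and without a filter (limma adjusted p = 0.0535, 0.0551 and 0.0545). Without control replicate 2, 3 or 4 or CKO replicate 1, 2 or 3 neither passed, and Pkd2 did not pass without control replicate 1 either (limma adjusted p = 0.0514).

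The other channels whose groups did not overlap, chosen after their values were seen, were Gja1, Lrrc8a and Asic3. Gja1, the main gap junction protein of bone cells, had means of 284 ± 39.2 FPKM (control) and 183 ± 58.9 FPKM (CKO; SD, n = 4; limma adjusted p = 0.159). Lrrc8a, a subunit of the volume-regulated anion channel, averaged 6.75 and 4.06 FPKM (adjusted p = 0.0977), and Asic3, an acid-sensing channel, 4.38 and 2.06 FPKM (adjusted p = 0.102). Some channels showed similar means in both genotypes. Tmem63a, which opens under osmotic stretch, averaged 11.0 and 11.2 FPKM, and Kcnk2, the potassium channel TREK-1, averaged 18.7 and 20.3 FPKM.

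**Figure D4:**
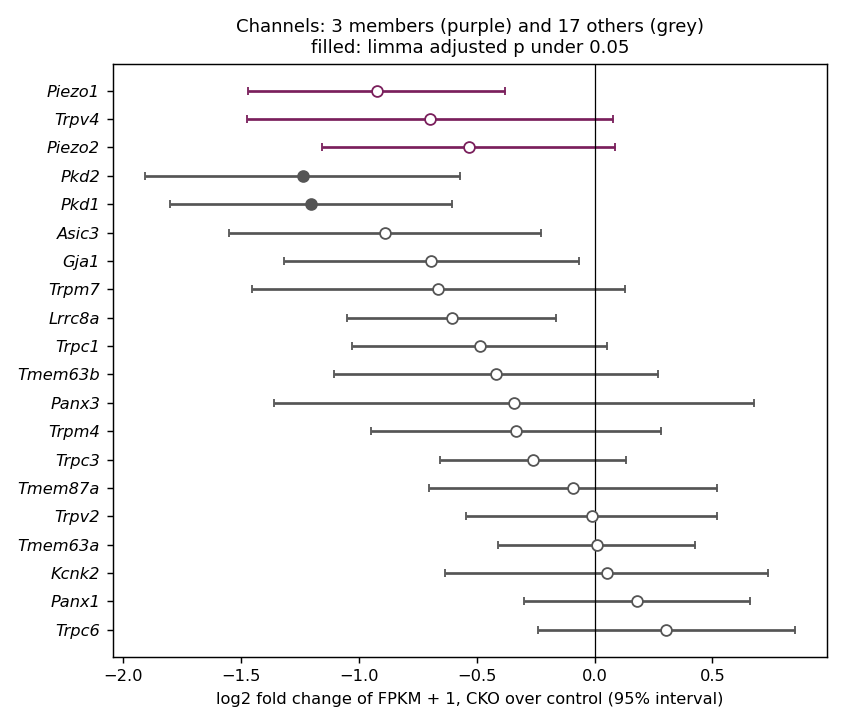
Log2 fold change on the log2(FPKM + 1) scale (point) with its 95% interval (bar) for the 3 channels (purple) and 17 others (grey); filled points passed a limma adjusted p of 0.05. Pkd1 and Pkd2 are the filled points, at -1.20 and -1.24, and the interval of Piezo1, from -1.47 to -0.38, stays below 0 while its adjusted p does not pass.

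Proteins that bind or regulate the channels did not pass. All 13 tested, of 15 listed, missed the threshold, with 9 below 0 (median -0.17). Below 0 were 48.9% of all genes and 82.2% of the longest transcript quartile. The highest by mean were Ctnnb1, the adherens junction protein beta-catenin, at 318 ± 45.0 FPKM (control) and 190 ± 85.9 FPKM (CKO; SD, n = 4; limma adjusted p = 0.187), and Mdfi, at 70.2 ± 15.6 and 77.0 ± 44.0 FPKM (limma adjusted p = 0.988). Mdfi and its relative Mdfic encode subunits that bind Piezo channels. Mdfic, picked with its values known, averaged 12.7 and 11.3 FPKM.

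Other calcium channels and stores of bone cells did not pass either. All 13 tested, of 16 listed, had a log2 fold change below 0 (median -0.32). Of all genes 48.9% were below 0, and of the longest transcript quartile 82.2%, with a median of -0.33. How far transcript length enters the counts of this list was not tested. The highest by mean were Cacnb3, an auxiliary subunit of voltage-gated calcium channels, at 20.5 ± 2.85 and 13.7 ± 2.75 FPKM (SD, n = 4; limma adjusted p = 0.129), and Atp2b1, a calcium pump of the plasma membrane, at 18.6 ± 2.04 and 11.5 ± 5.84 FPKM (limma adjusted p = 0.173). The pore subunits Cacna1c, Cacna1d and Cacna1h were below the filter.

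Of 19 tested genes that act downstream of calcium entry or of mechanical load, 1 fell, against 0.651% of all genes. None rose, 18 did not pass, and 14 were below 0 (median -0.25), against 48.9% of all genes and 82.2% of the longest transcript quartile. The 1 that fell was Ccn2, a matricellular protein and YAP/TAZ target. It had 111, 147, 149 and 139 FPKM in the controls by replicate number, against 99.1, 73.2, 52.7 and 61.0 FPKM in the CKO libraries, with no overlap. Its log2 fold change was -0.95 (SE 0.24, limma adjusted p = 0.0497), and it kept its call only without control replicate 1 or CKO replicate 4 when libraries were left out in turn. Its call was also lost with a pseudocount of 0.1 or 0.01 (limma adjusted p = 0.0518 and 0.0532), no filter (0.0539), robust estimation (0.0511) and the replicate block (0.0775). The call was lost too with median-of-ratios scaling (limma adjusted p = 0.0638), equal totals (0.0637), the length trend removed (0.115), and the Y-linked (0.244) and marrow (0.576) covariates. With the endothelial covariate the log2 fold change was -0.52 (limma adjusted p = 0.334). In 4 of the 19 effectors the groups did not overlap, against 18.7% of all genes: in FPKM as deposited, CKO was lower in Ccn2 and Nfatc1 and higher in Calm3 and Ppp3ca. The last 3 are named with their values known, and none of them passed. Nfatc1, a transcription factor activated by calcineurin, had means of 38.1 ± 12.3 FPKM (control) and 18.7 ± 4.43 FPKM (CKO; SD, n = 4; limma adjusted p = 0.0662). Calm3, a calmodulin gene, had 71.4 ± 8.50 and 103 ± 18.3 FPKM (limma adjusted p = 0.149). Ppp3ca, a catalytic subunit of calcineurin, had 26.7 ± 1.98 and 36.3 ± 9.65 FPKM (limma adjusted p = 0.261). Wnt1, which lies downstream of Piezo1 in mouse bone cells, was below the filter, at 1.28 ± 0.868 and 0.421 ± 0.248 FPKM.

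For each channel the protein-coding genes with the most similar profile over the 8 libraries were found from the root mean square difference of log2(FPKM + 1), each profile centred on its own mean. Dchs1, a giant cadherin, was closest to Piezo1, differing by 0.053 log2 units where the median of 9427 genes compared was 0.70. It averaged 7.48 FPKM in control and 3.25 in CKO. Pou6f1, a POU-domain transcription factor, Tril, a leucine-rich repeat membrane protein, and Stard9, a kinesin-related protein, followed at 0.095 to 0.10 log2 units.

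The closest profiles to Trpv4 were those of Gdpd5, a membrane phosphodiesterase, Nckap5l, a microtubule-associated protein, Mical3, an actin-oxidising enzyme, and Itga10, a collagen-binding integrin known from chondrocytes, at 0.10 to 0.12 log2 units. Like Trpv4 at 11.1 FPKM, these stood higher in CKO replicate 4 than in the other CKO libraries, with Itga10 at 23.4 FPKM against 6.42 to 13.7 FPKM. The closest to Piezo2 were Tspan18, a tetraspanin, Fat3, an atypical cadherin, Fam149a and Fbxl17, an F-box protein, at 0.13 to 0.15 log2 units. In these, as in Piezo2, CKO replicate 4 was the lowest CKO library. For Trpv4 and Piezo2 alike, the genes were chosen for likeness over these same 8 libraries. The shared place of CKO replicate 4 therefore follows from the choice and is not a separate result. The channels were less like each other: Piezo1 differed from Piezo2 by 0.35 and from Trpv4 by 0.40, and Trpv4 from Piezo2 by 0.58 log2 units. All 12 close genes had transcripts longer than the median of 3086 bases.

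**Figure D5:**
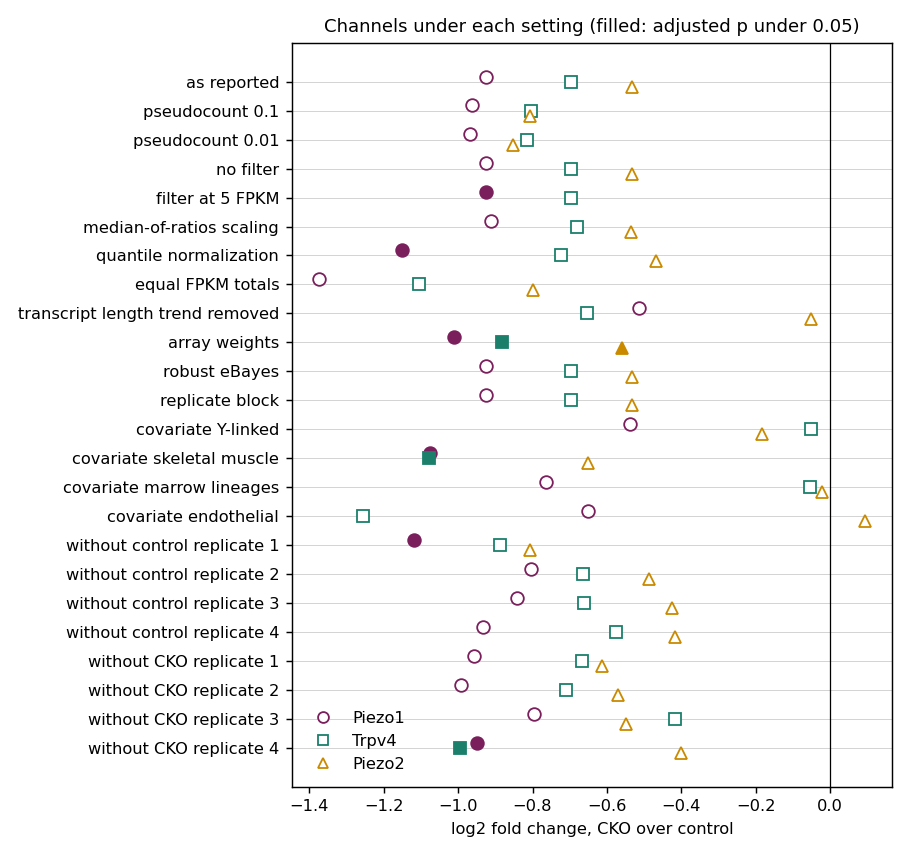
Log2 fold change of Piezo1 (circles), Trpv4 (squares) and Piezo2 (triangles) under each setting of the fit; filled symbols passed a limma adjusted p of 0.05. Piezo1 is below 0 in every row, between -1.37 and -0.51, and passes in 6 of 23 alternatives; Piezo2 lies above 0 with the endothelial covariate, at 0.094.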

How the data were processed

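Bulk RNA-seq libraries of the mouse femoral shaft (4 control, 4 CKO) were grouped by their titles. The submitters' processing notes name the build GRCm38, DESeq2 1.20.0, featureCounts 1.5.0-p3, HISAT2 2.0.5, CASAVA 1.8 and fastp, without roles. Gene annotation, strand setting and gene filter: not given in the sources used here. Per the file headers, the deposited table holds FPKM per library, a p-value and a log2 fold change per gene, all computed by the authors. FPKM scales out depth, so depth is unknown and no counting interval is given; low values did not fall on steps of whole reads (mean distance 0.188 to 0.229, against 0.25 by chance), and no count test was run. No 2 libraries were identical (correlations 0.854 to 0.984).

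The test kept the 12748 genes that reached 1 FPKM in 4 or more libraries. limma 3.58.1 (R 4.3.3) was run on log2(FPKM + 1) with an intensity trend and genotype only, with Benjamini-Hochberg adjustment over all genes kept and a threshold of 0.05. The fit was also run on simulated data in which genes varied independently and whole libraries did not shift. That run therefore cannot show how the fit behaves under the shifts between these libraries. Exact permutation tests ran over 70 assignments. Ratios used log2(FPKM + 0.1), and their 97.1% intervals invert that test. Alternatives were other pseudocounts, filters, scalings, weights, covariates, a replicate block, removal of a loess trend (span 0.4) with transcript length, and leaving out each library.

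The channels and gene lists were chosen with earlier results of these data known. Named genes are, from each list of channels, partners, calcium genes and effectors, up to 4 past the threshold or, with none, the 2 with the highest mean, plus the 4 closest profiles per channel among genes varying at least 0.5 times as much.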

Additional observations from a re-analysis of the deposited data

Results flagged for a closer look

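Slc26a2 in control replicate 2, at 7.49 FPKM, stood apart from the other 3 controls, its gap to the next being 0.844 of the range of the group. Piezo2 relative to the osteoblast markers was far below the other controls in control replicate 1, at -9.47 log2 units, with a gap of 0.944 of the range. Chance alone gives such a gap in about 1 of 20 groups of 4.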

How the results depend on the processing

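Piezo1 was below 0 in all 23 alternatives (-1.37 to -0.51) and passed in 6. It passed with a filter at 5 FPKM (-0.92, limma adjusted p = 0.0447), quantile normalization (-1.15), array weights (-1.01) and the muscle covariate (-1.08), and over fits leaving out 1 library it ranged from -1.12 to -0.80. Trpv4 passed with array weights (-0.88) and the muscle covariate (-1.08), and ranged from -0.99 to -0.42 without 1 library. Piezo2 passed with array weights (-0.56), was 0.094 with the endothelial covariate, and ranged from -0.81 to -0.40 without 1 library. Slc26a2 lost its call with a pseudocount of 0.01 (-1.93), median-of-ratios scaling (-1.35), equal FPKM totals (-1.65), the length trend removed (-0.94) and covariates for Y-linked (-1.35), marrow (-1.42) and endothelial (-0.59) expression. Over the 8 fits without 1 library it ranged from -1.56 to -1.16 and kept its call in only 2 (limma adjusted p from 0.0341 to 0.165 over the 8).

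The 578 calls by limma became 381 without a filter, 358 with quantile normalization, 6005 with array weights, 1788 with the muscle covariate and 0 to 1885 without 1 library. They became 0 with median-of-ratios scaling, equal totals, the length trend removed, and the Y-linked, marrow and endothelial covariates, where an unadjusted p under 0.05 was found for 3395, 3934, 2105, 2202, 1116 and 3182 genes in that order. Equal totals, array weights and the endothelial covariate moved the median of all genes to -0.37, 0.13 and 0.32, against 0.015 as reported. The causes were not tested.

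With a pseudocount of 1, the Trpv4 to Piezo2 ratio differed by -0.16, Piezo2 to osteoblast and endothelial markers by 0.25 and 0.029, and Trpv4 to osteoblast markers by 0.084. Against the median of the markers the osteoblast ratios were -0.89, -0.73 and -0.73 for Piezo1, Trpv4 and Piezo2. Without 1 library, the ratios of Piezo1 to Trpv4 (-0.36 to 0.15), Piezo1 to Piezo2 (-0.44 to 0.086), Trpv4 to Piezo2 (-0.59 to 0.37), Piezo2 and Trpv4 to osteoblast markers (-0.42 to 0.41 and -0.19 to 0.11) and Trpv4 to endothelial markers (-0.70 to 0.13) took both signs, and no ratio passed. Among other named genes, Ctnnb1 and Atp2b1 were at 0.57 and 0.46 with the endothelial covariate. Mdfi, at 0.010 as reported, was at -0.51 with quantile normalization, -0.46 with equal totals, -0.32 with the length trend removed, -0.40 with array weights, -0.22 with the muscle covariate, -1.12 with the endothelial covariate and -0.33 to 0.21 without 1 library.

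With replicate number as a block, limma called 274 genes and Piezo1 had an adjusted p of 0.0705. Same-numbered libraries did not deviate together (correlations -0.034, 0.23, -0.26 and 0.43), so the numbers were not taken as pairs. With 4 libraries per genotype and an unknown depth, small differences could not be detected.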
